A study of Mus musculus with 4 samples.

Results

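The genes described here belong to the epidermal growth factor receptor (EGFR) axis: the ligands Areg, Ereg and Hbegf, the receptors Egfr, Erbb2 and Erbb3, and the RAS and ERK feedback genes Dusp6, Spry2 and Spry4. They were taken as every probe set whose platform annotation names that gene alone, which gave 20 probe sets for 8 of the 9 genes, out of 45037 probe sets and 18193 genes in all. Areg had no such probe set in the annotation used and is not analysed here. RNA came from whole lungs of mice of the B6/J strain, with 2 IKKa floxed and 2 wild type samples and 1 single-colour Affymetrix array for each. Mice of both genotypes had received adenovirus with Cre recombinase by the intratracheal route, 4 months before the lungs were collected. Cre, which cuts out DNA between loxP sites, was thus delivered in both groups, and the genotypes differed in the floxed allele of IKKα, a kinase of the IκB kinase complex. A virus given through the airways reaches only part of the cells of a lung, while the RNA came from the whole tissue, so a lower signal from fewer cells of a type and from less RNA per cell cannot be told apart. The labels do not say which promoter drove Cre, give no age and leave unsaid if an array stands for 1 animal. The p-values therefore cover the spread among these 4 samples alone, and that spread may be technical.

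EGFR ligands are made as membrane-anchored precursors, are released by ADAM proteases and bind EGFR, which then pairs with another EGFR molecule or with ERBB2 or ERBB3 and signals through RAS, RAF, MEK and ERK. ERK signalling switches on its own inhibitors. DUSP6 is a phosphatase that removes the activating phosphates from ERK, and the Sprouty proteins dampen signalling between the receptor and RAF. In lung epithelium this axis takes part in repair after injury, and it is a common driver of lung adenocarcinoma. In mouse skin, IKKα is known to hold EGFR ligand expression and ERK signalling in check. The comparison asks whether the transcripts of this axis differed between lungs with and without the floxed allele.

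Promoter sequences came from a table drawn from RefSeq (build GRCm38.p6), in which 5 of the 9 genes were matched. The 3 shown belong to Dusp6 and Spry2, the feedback genes with the largest positive differences in the gene-level test, and to Egfr, the receptor at the centre of the axis. Each runs 5′ to 3′ on the gene's strand from 250 bases before to 50 bases after the annotated start. They lie at chr10:99262981-99263280 (plus strand) for Dusp6, chr14:105896770-105897069 (minus strand) for Spry2 and chr11:16751953-16752252 (plus strand) for Egfr. Capitals mark matches on either strand to CCGGAA, the core bound by ETS factors such as those that ERK activates, and to GGGCGG, the GC box.
Dusp6: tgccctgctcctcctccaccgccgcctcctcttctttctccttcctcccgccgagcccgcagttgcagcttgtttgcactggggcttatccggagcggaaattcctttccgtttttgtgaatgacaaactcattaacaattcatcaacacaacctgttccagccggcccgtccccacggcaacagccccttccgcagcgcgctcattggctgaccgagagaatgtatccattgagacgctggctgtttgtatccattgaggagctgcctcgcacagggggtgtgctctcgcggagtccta
Spry2: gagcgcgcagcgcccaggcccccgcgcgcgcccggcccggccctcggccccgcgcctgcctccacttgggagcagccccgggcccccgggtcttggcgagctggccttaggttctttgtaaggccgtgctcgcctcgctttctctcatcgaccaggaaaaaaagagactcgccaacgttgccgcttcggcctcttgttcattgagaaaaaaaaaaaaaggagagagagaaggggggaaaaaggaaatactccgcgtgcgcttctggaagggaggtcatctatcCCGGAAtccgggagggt
Egfr: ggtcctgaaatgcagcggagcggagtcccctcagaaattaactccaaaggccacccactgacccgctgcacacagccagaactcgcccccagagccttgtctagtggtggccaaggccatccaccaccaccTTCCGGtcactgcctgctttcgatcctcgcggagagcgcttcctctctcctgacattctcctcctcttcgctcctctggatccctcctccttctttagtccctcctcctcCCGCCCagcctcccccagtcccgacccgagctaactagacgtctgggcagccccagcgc
Spry2 held 1 ETS core, which began 34 bases into the transcript. Egfr held 1 ETS core on the opposite strand, from 119 bases before its start, and 1 GC box on the opposite strand, from 9 bases before it. Dusp6 held neither. Of 32851 promoters of the same length, 14.9% held CCGGAA and 35.7% held GGGCGG. The AP-1 motif TGANTCA, sought in the same way, was in 0 of these 3 windows and in 7.81% of all promoters. No 2 of these matches overlapped. The GC share was 57.3% for Dusp6, 62.7% for Spry2 and 62.3% for Egfr, against a median of 52.7%. These matches describe the letters only, and no binding was measured.

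The 7 lung markers checked, among them the surfactant genes and the club cell gene Scgb1a1, all had intensities of at least 2271 on every array. The values are the authors' linear intensities, which had the same trimmed mean of 150.001 on each array. Arrays of 1 group correlated at 0.987 (floxed) and 0.991 (wild type) across genes, and arrays of different groups at 0.972 to 0.976. The groups also differed in their sex-linked genes. Xist, which coats and silences 1 X chromosome in females, was 4246 and 4629 in floxed lungs, against 31.8 and 22.9 in wild type lungs, so genotype and sex cannot be told apart here. The Gapdh 3′ to 5′ ratio, a sign of RNA integrity, was 1.44 and 1.68 in floxed and 1.18 and 1.10 in wild type lungs. The same ratio for actin lay closer between the groups, at 2.67 and 2.77 in floxed and 2.65 and 2.46 in wild type lungs. The transcript of IKKα itself is not analysed here, and loss of the floxed allele was thus not checked. The probe set with the highest mean level stood for its gene, and genes below the 30th percentile (intensity 20.4) were not tested. The groups were compared with limma on log2(intensity + 16), with adjustment over all 12735 genes tested and a threshold of 0.05, and fold changes are on that scale, which understates changes of low genes.

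None of the 7 member genes tested differed between floxed and wild type lungs after adjustment. Over all genes 1.73% were called, 127 higher and 93 lower, a split that turned to 82 higher and 101 lower without floxed replicate 1 and was 84 higher and 62 lower without wild type replicate 2. The unadjusted p was under 0.05 for 0 of the 7 genes, against 14.3% of all genes. Log2 fold changes of the 7 ran from -0.22 for Erbb3 to 0.29 for Dusp6, with a median of -0.0033, where the median of all genes was 1.67e-05. Their median size without regard to sign was 0.13, against 0.14 over all genes. The floxed and wild type arrays did not overlap for 3 of the 7 genes, Dusp6 and Spry2 above and Erbb3 below, against 45.7% of all genes. The share of members whose groups separated was therefore close to that of genes at large. A missed threshold does not show equal expression, and the 95% intervals of the 7 genes together spanned folds of 0.664 to 1.52.

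**Figure D1:**
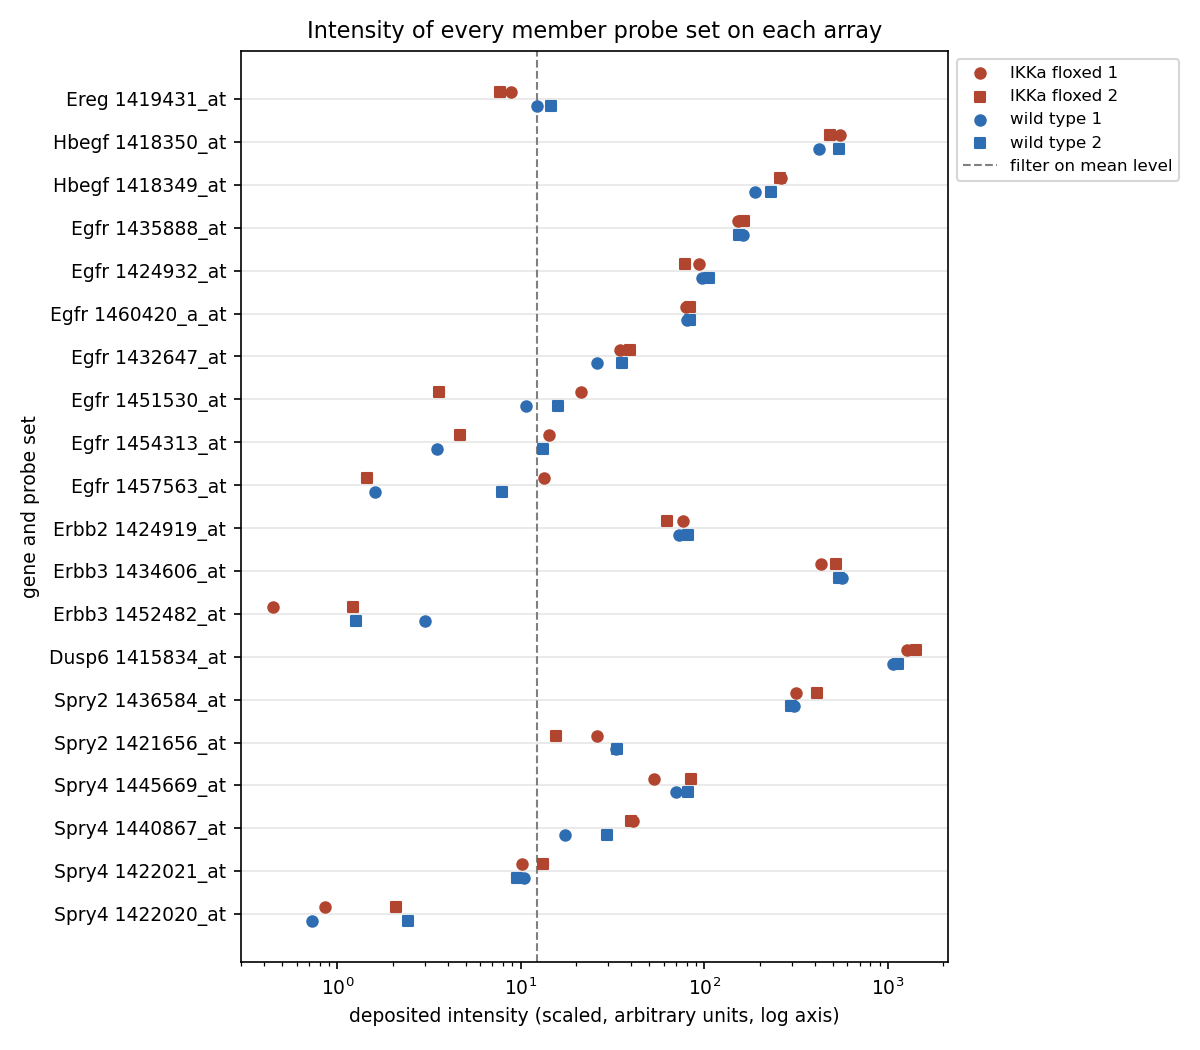
Deposited intensity (log axis) of each of the 20 member probe sets, 1 row per probe set, with the 2 IKKa floxed arrays in red above the 2 wild type arrays in blue. The dashed line marks an intensity of 12.3, the filter of the probe-set test, and the red and blue points lie close together in most rows to the right of it.

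Of the ligands, Hbegf was the 1 gene that could be tested, and it did not pass the adjusted threshold. HB-EGF is a heparin-binding ligand of EGFR and ERBB4 that macrophages, endothelium and epithelium make. The probe set that stands for Hbegf, 1418350_at, read 545 and 484 in floxed lungs, against 423 and 541 in wild type lungs. The groups overlapped, and the log2 fold change was 0.10 ± 0.16 SE (limma adjusted p = 0.829, 95% interval of the fold 0.830 to 1.38). Without wild type replicate 1 the estimate turned to -0.07. The second probe set, 1418349_at, read 263 and 259 in floxed lungs, against 189 and 230 in wild type lungs. Here both floxed arrays stood above both wild type arrays, by a log2 fold change of 0.30 ± 0.15 SE (limma adjusted p = 0.544 over probe sets, where 0.552% were called), or 0.17 without wild type replicate 1. The 2 probe sets of Hbegf thus pointed the same way and neither passed.

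Ereg, which encodes epiregulin, a ligand of EGFR and ERBB4, gave a low signal on every array. Its 1 probe set read 8.86 and 7.71 in floxed lungs, against 12.3 and 14.5 in wild type lungs. Both floxed arrays were below both wild type arrays, but all 4 values were under the gene-level filter of 20.4, so the gene was not tested with the others. With no filter on low levels, its log2 fold change was -0.28 ± 0.12 SE (limma adjusted p = 0.492), in a test that called 0.379% of genes.

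No receptor gene passed the adjusted threshold. EGFR is the receptor tyrosine kinase that binds all ligands of this group. The probe set that stands for Egfr, 1435888_at, read 152 and 164 in floxed lungs, against 162 and 155 in wild type lungs. The floxed mean was 158 ± 8.40 and the wild type mean 159 ± 4.60 (SD, n = 2 each), with a log2 fold change of -0.0033 ± 0.12 SE (limma adjusted p = 0.994). The 95% interval of its fold ran from 0.819 to 1.22. This was the smallest difference among the 7 genes, and its sign changed with small changes of method or of the arrays used.

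Of 7 Egfr probe sets, 4 passed the filter on probe-set level. Probe set 1460420_a_at read 79.6 and 83.1 in floxed lungs, against 80.2 and 83.0 in wild type lungs, with a log2 fold change of -0.0033 ± 0.14 SE. Probe set 1424932_at read 93.8 and 77.9 in floxed lungs, against 96.7 and 106.5 in wild type lungs, and was lower on both floxed arrays (-0.21 ± 0.15 SE, limma adjusted p = 0.664; -0.10 without floxed replicate 2). In contrast, 1432647_at read 34.7 and 39.4 in floxed lungs, against 26.0 and 35.8 in wild type lungs, with groups that overlapped (0.19 ± 0.16 SE, limma adjusted p = 0.728; 0.03 without wild type replicate 1). The 4 tested probe sets therefore had no common direction. The other 3 lay between 1.46 and 21.2, and in each of them floxed array 1 was the highest of the 4, against floxed array 2 at 3.56, 4.68 and 1.46. The annotation used does not say which Egfr transcripts each probe set reads.

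ERBB2 binds no ligand of its own and acts as the partner of the other receptors. Erbb2 had 1 probe set, which read 76.8 and 62.5 in floxed lungs, against 72.3 and 81.4 in wild type lungs. Its groups overlapped, with a log2 fold change of -0.12 ± 0.14 SE (limma adjusted p = 0.758), and without floxed replicate 2 the estimate was 0.0022. ERBB3 binds neuregulins, has little kinase activity and signals through its partners, above all to PI3 kinase. Erbb3 read 430 and 522 in floxed lungs, against 564 and 543 in wild type lungs. Both floxed arrays were below both wild type arrays, with floxed array 2 near the wild type values (log2 fold change -0.22 ± 0.14 SE, limma adjusted p = 0.543, 95% interval of the fold 0.685 to 1.08). Its estimate was -0.08 without floxed replicate 1 and -0.35 without floxed replicate 2. Its second probe set, 1452482_at, read at most 3.02 on any array and was not tested.

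Markers of the lung's cell types were read on the same arrays. Of 7 general epithelial genes, 0 passed the test (median log2 fold change -0.05), and their summed intensity was 8650 to 9322 in floxed and 9078 to 9545 in wild type lungs. Likewise 0 of 9 type 2 alveolar genes passed (median 0.10; summed intensity 44350 to 47630 in floxed and 39907 to 41399 in wild type lungs). Type 1 alveolar genes passed for 0 of 7 (median 0.12; summed intensity 41591 to 43463 in floxed and 38211 to 38287 in wild type lungs), with Pdpn just outside the threshold at -0.69 (limma adjusted p = 0.0518). Airway secretory and mucous genes moved far more, with 7 of 10 lower (median -2.23; summed intensity 34753 to 42134 in floxed and 40036 to 41710 in wild type lungs). The 3 that did not pass, Scgb1a1 (0.30), Cyp2f2 (0.12) and Scgb3a2 (-0.14), made up most of that sum. Of the ciliated cell genes, 0 of 8 passed (median -0.38; summed intensity 3680 to 4428 in floxed and 4806 to 4868 in wild type lungs). Of these 8, 7 lay below 0 and 1 above. The unadjusted limma p was under 0.05 for 5 of the 8, against 14.3% of all genes. Their groups did not overlap for 7, against 45.7% of all genes. All 5 basal cell markers stayed at or below 30.3 and were not tested. Cardiac muscle genes were lower for 8 of 9 (summed intensity 494 to 634 in floxed and 4818 to 7100 in wild type lungs). Among immune lists, 4 of 7 T cell genes and 3 of 8 genes of the monocyte and interstitial macrophage list were higher (summed intensity 635 to 829 in floxed and 323 to 347 in wild type lungs for T cells). Of the mast cell, basophil and innate type 2 list 2 of 7 genes were tested and 1 was higher, Prg2. It read 73.4 and 58.7 in floxed lungs, against 4.73 and 7.15 in wild type lungs, and passed the filter on mean level only through its floxed values. The 5 genes not tested included Cpa3, which was lower on both floxed arrays, at 4.38 and 3.08, against 18.2 and 18.7 in wild type lungs. No direction is therefore read for this list. Of 7 alveolar macrophage genes 1 was higher, Marco, and 1 lower, Fabp4 (median 0.19; summed intensity 9582 to 9673 in floxed and 7006 to 7263 in wild type lungs). Endothelial genes passed for 0 of 6 (median 0.08; summed intensity 8132 to 8979 in floxed and 7544 to 8450 in wild type lungs). Adipocyte genes were lower for 3 of 4 (median -1.32), as was 1 of 6 fibroblast genes, Dcn (median 0.01). Marker intensities went down to 0.598, in the basal cell list, far below the filter of 20.4, so a value above 0 is no sign of detection. The part of these cell types in the members' values was not tested.

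In the gene-level test, the feedback genes included the 2 largest positive differences among the members, those of Dusp6 and Spry2. This order depended on the probe set used. As means of all probe sets, Hbegf stood at 0.20 and Spry2 at -0.098. The Dusp6 probe set read 1269 and 1427 in floxed lungs, against 1065 and 1137 in wild type lungs. Both floxed arrays were above both wild type arrays, at a mean of 1348 ± 112 against 1101 ± 50.4 (SD, n = 2 each). The log2 fold change of 0.29 ± 0.13 SE, or 1.22-fold, did not pass (limma adjusted p = 0.374, 95% interval of the fold 0.990 to 1.50). It stood between 0.20 and 0.37 whichever array was left out, and its lowest adjusted p under any alternative was 0.201.

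Spry2, which encodes a Sprouty inhibitor induced by growth factor signalling, gave probe sets of opposite sign. The one that stands for the gene, 1436584_at, read 317 and 408 in floxed lungs, against 306 and 297 in wild type lungs. Floxed array 1 was close to the wild type arrays and floxed array 2 stood apart, so the log2 fold change of 0.24 ± 0.15 SE (limma adjusted p = 0.533) was 0.07 without floxed replicate 2. The second probe set, 1421656_at, read 26.0 and 15.5 in floxed lungs, against 33.1 and 33.6 in wild type lungs. It was lower on both floxed arrays by a log2 fold change of -0.44 ± 0.18 SE, with an unadjusted p of 0.0449 and a limma adjusted p of 0.450, and by -0.23 without floxed replicate 2 or -0.20 with a pseudocount of 64. As the mean of both probe sets, Spry2 stood at -0.098. A direction for Spry2 thus depended on the probe set read.

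Spry4, another Sprouty inhibitor, also had probe sets of opposite sign. Of its 4 probe sets, the one that stands for the gene, 1445669_at, read 53.3 and 84.3 in floxed lungs, against 69.7 and 81.7 in wild type lungs. The floxed arrays lay on either side of the wild type arrays, and the log2 fold change was -0.13 ± 0.19 SE (limma adjusted p = 0.809), or 0.13 without floxed replicate 1. Probe set 1440867_at read 41.0 and 39.7 in floxed lungs, against 17.5 and 29.6 in wild type lungs. It was higher on both floxed arrays and had the largest difference of all member probe sets, 0.53 ± 0.18 SE, with an unadjusted p of 0.0254 and a limma adjusted p of 0.385. The estimate was 0.31 without wild type replicate 1 and 0.26 with a pseudocount of 64. The remaining 2, 1422021_at and 1422020_at, read at most 13.2 and 2.42 on any array and were not tested.

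Taken by probe set, 13 of the 20 passed the filter and 0 passed the test. An unadjusted p under 0.05 was seen for 2 of the 13, against 10.8% of all 31526 probe sets tested, and these 2 were the second probe sets of Spry2 and Spry4 with opposite signs. The groups did not overlap for 7 of the 13, with floxed above for 4 and below for 3, against 42.5% of all probe sets. Their 95% intervals together spanned folds of 0.549 to 1.95.

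**Figure D2:**
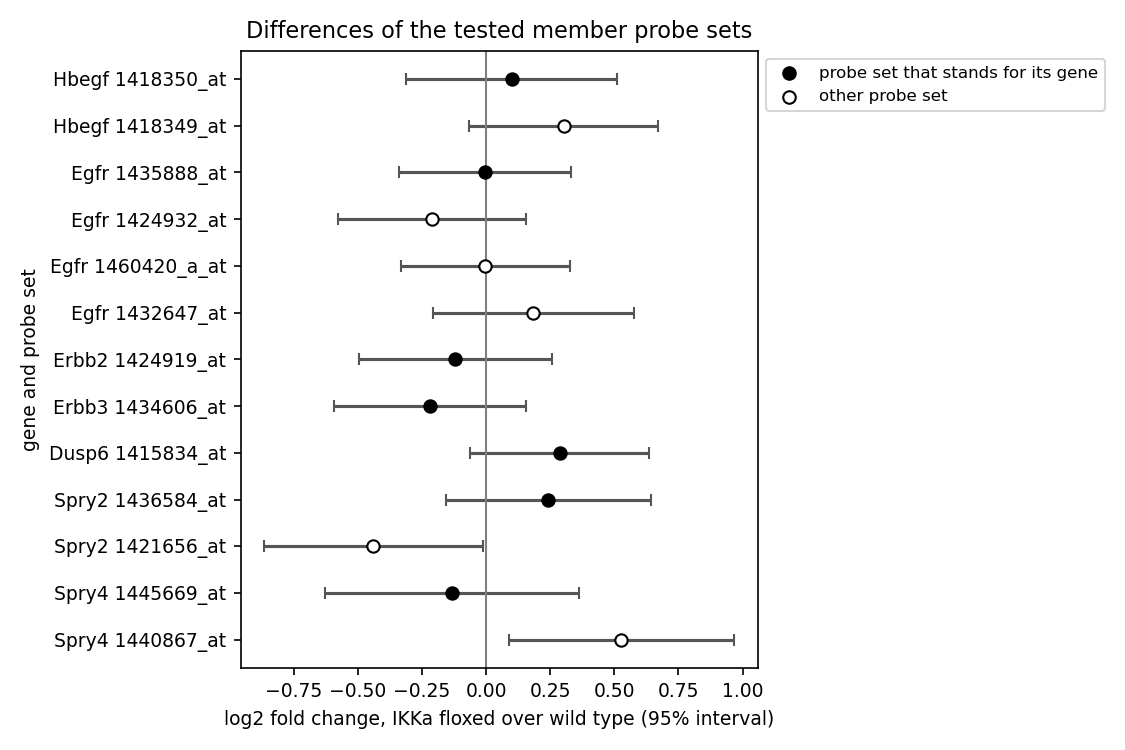
Log2 fold change of IKKa floxed over wild type for the 13 tested member probe sets with 95% intervals from limma (n = 2 arrays each). Filled points stand for their gene in the gene-level test. The intervals of 11 probe sets include 0, and those of 1421656_at (Spry2) and 1440867_at (Spry4) leave it on opposite sides, with neither passing the adjusted threshold.

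The rest of the pathway was read from 10 lists of other ligands, receptors, adaptors, kinases, inhibitors and targets. Of 74 listed genes 57 were tested, 10 lay below the filter and 7 are not analysed here. Only Egr1 passed, which rose, and 0 fell, so 1 of 57 stands against 1.73% of all genes. The unadjusted p was under 0.05 for 12 of the 57, against 14.3% of all genes, and the median log2 fold change was 0.03. EGR1 is a zinc finger transcription factor that ERK signalling induces within minutes. Egr1 read 629 and 636 in floxed lungs, against 347 and 385 in wild type lungs. Its log2 fold change of 0.76 ± 0.12 SE, or 1.70-fold, had a limma adjusted p of 0.0364. With an array left out its log2 fold change stayed between 0.69 and 0.83 and the call was lost (adjusted p = 0.0668 to 0.157); 1 group then holds 1 array, and the gene's own spread comes from the other group alone. The call was also lost in the fit over probe sets, where the log2 fold change was the same, the SE 0.14 and the adjusted p 0.115.

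The other ERK-induced genes lay on both sides of 0 without passing. Fos, a subunit of the AP-1 transcription factor, read 545 and 550 in floxed lungs, against 414 and 294 in wild type lungs (log2 fold change 0.63 ± 0.17 SE, limma adjusted p = 0.163). Its estimate was 0.39 without wild type replicate 2. Egr2, a relative of Egr1, read 78.8 and 91.1 in floxed lungs, against 62.0 and 48.9 in wild type lungs (0.50 ± 0.14 SE, limma adjusted p = 0.181). Egr3, also related to Egr1, read 36.0 and 46.8 in floxed lungs, against 56.8 and 46.8 in wild type lungs (-0.24 ± 0.15 SE, limma adjusted p = 0.530). Etv5, an ETS factor of type 2 alveolar cells, read 693 and 906 in floxed lungs, against 1169 and 848 in wild type lungs (-0.32 ± 0.20 SE, limma adjusted p = 0.529). Egr3 and Etv5 were named after their values were seen, as the members of the list below 0. In all, 7 of its 9 tested genes were above 0, against 6368 of all 12735 genes, with a median of 0.11. Among 9 other MAP kinase phosphatases, 8 were above 0 and 0 passed (median 0.17). Dusp1, a nuclear phosphatase of ERK, JNK and p38, read 2269 and 2111 in floxed lungs, against 1575 and 1596 in wild type lungs (0.46 ± 0.12 SE, limma adjusted p = 0.143). Dusp2, a nuclear phosphatase of lymphoid and myeloid cells, read 54.0 and 63.4 in floxed lungs, against 32.7 and 40.6 in wild type lungs (0.51 ± 0.14 SE, limma adjusted p = 0.162). Egr1, Fos, Egr2, Dusp1 and Dusp2 were the genes named for passing or for the largest moderated t of their lists, so that their groups did not overlap is part of that choice. Over the whole lists, the groups did not overlap for 5 of 9 ERK-induced genes and 4 of 9 phosphatases, against 45.7% of all genes. The other tested probe sets of Egr2, Egr3 and Etv5 had the same sign as those given. The T cell and monocyte markers given above were higher on the same arrays, and their part was not tested.

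**Figure D3:**
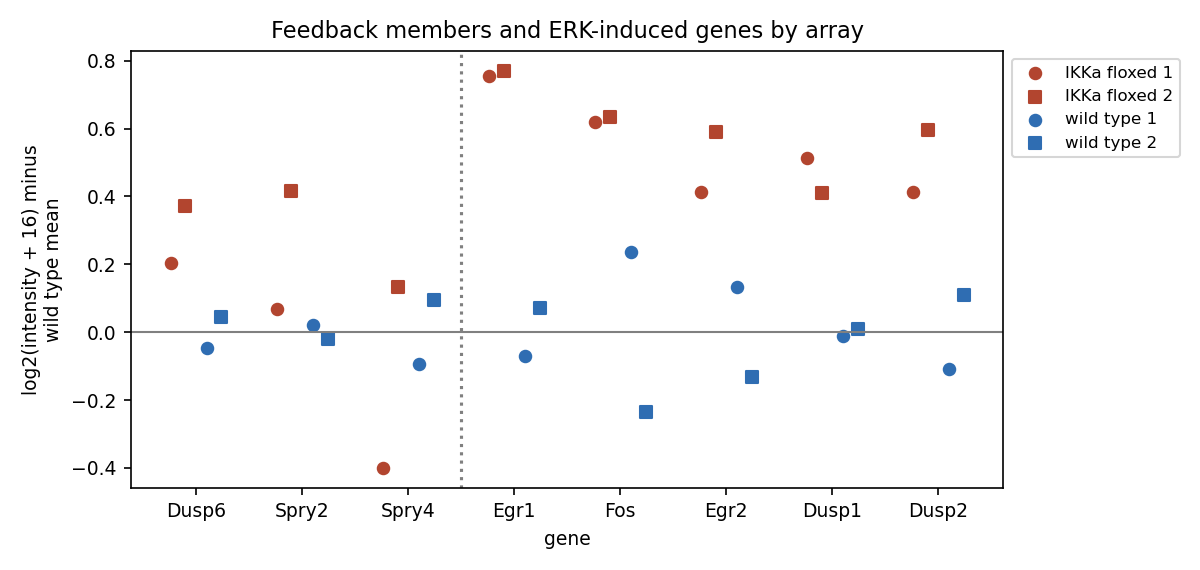
Log2(intensity + 16) of each array minus the mean of the wild type arrays, for the 3 feedback members left of the dotted line and 5 ERK-induced genes and MAP kinase phosphatases right of it. These 5 were named for passing or for the largest moderated t of their lists, so their separation by group is part of that choice. Genes of the same lists below 0, such as Egr3 and Etv5, are not shown. The 2 IKKa floxed arrays (red) stand at 0.76 and 0.77 for Egr1, but at -0.40 and 0.13 for Spry4.

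Upstream of RAS, 0 genes of the lists of ligands, proteases and receptor inhibitors passed. Of 5 other ERBB ligands tested, 0 passed and 4 lay below 0. Btc, betacellulin, read 50.5 and 47.8 in floxed lungs, against 71.8 and 63.7 in wild type lungs (log2 fold change -0.36 ± 0.12 SE, limma adjusted p = 0.249), and its other probe set overlapped at -0.17. Egf, the founding ligand of the family, had 27.7 and 26.7 in floxed lungs, against 21.9 on both wild type arrays (0.19 ± 0.12 SE). Erbb4, the receptor of neuregulins and HB-EGF, read at most 5.23 on any array and was not tested. The proteases that release ligands did not pass, with Adam17 at 0.20 ± 0.13 SE and Rhbdf1, a carrier of ADAM17, at -0.14 ± 0.12 SE. Of the other 2 probe sets of Adam17, 1 overlapped between the groups at 0.27, and 1 was lower on both floxed arrays at -0.098; the mean of the 3 was 0.12. Among 8 inhibitors and ubiquitin ligases of the receptors, Lrig3, a relative of the receptor inhibitor LRIG1, read 60.5 and 61.2 in floxed lungs, against 105.4 and 88.3 in wild type lungs (-0.55 ± 0.13 SE, limma adjusted p = 0.116). Its other tested probe set overlapped between the groups at -0.15, and the mean of its probe sets was -0.17. Rnf41, a ubiquitin ligase of ERBB3, stood at 0.42 ± 0.13 SE (limma adjusted p = 0.202), but its other tested probe sets overlapped at -0.13 and 0.19, and the mean of its probe sets was 0.17. Errfi1, an inhibitor that binds the EGFR kinase domain, was named after its values were seen. It read 3098 and 3460 in floxed lungs, against 2494 and 2458 in wild type lungs (0.40 ± 0.12 SE, limma adjusted p = 0.207), and its other probe set overlapped at 0.18. The unadjusted p was under 0.05 for 3 of the 8 genes of this list, against 14.3% of all genes, and their median size without regard to sign was 0.22, against 0.14.

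Downstream, 0 of 8 adaptors and RAS activators passed, with Rasgrp1, a RAS activator of T cells, at 0.49 ± 0.13 SE and the adaptor Shc1 at 0.29 ± 0.12 SE (limma adjusted p = 0.158 and 0.336). The other 2 tested probe sets of Rasgrp1 overlapped between the groups at 0.06 and 0.05, and the mean of its probe sets was 0.079; the other probe set of Shc1 overlapped at 0.11. Of 7 tested RAS GTPases and kinases of the RAF, MEK and ERK cascade 0 passed, with Ksr1, a scaffold of the cascade, at 0.25 ± 0.13 SE and Rras at 0.19 ± 0.13 SE. The other tested probe set of Ksr1 separated the groups the opposite way at -0.27, and the mean of its probe sets was -0.0060. Among 4 RAS GTPase-activating proteins, Rasal2 read 177 and 223 in floxed lungs, against 316 and 279 in wild type lungs (-0.54 ± 0.15 SE, limma adjusted p = 0.165), and Nf1, neurofibromin, stood at -0.12 ± 0.12 SE. The other 2 tested probe sets of Rasal2 overlapped between the groups at -0.085 and -0.49, and the mean of its probe sets was -0.37. Of 3 other Sprouty and Spred inhibitors 0 passed, with Spred1 at -0.22 ± 0.12 SE (-0.16 as the mean of its 8 probe sets) and Spry1 at 0.08 ± 0.12 SE. Spry1 read 309 and 315 in floxed lungs, against 298 and 292 in wild type lungs.

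**Figure D4:**
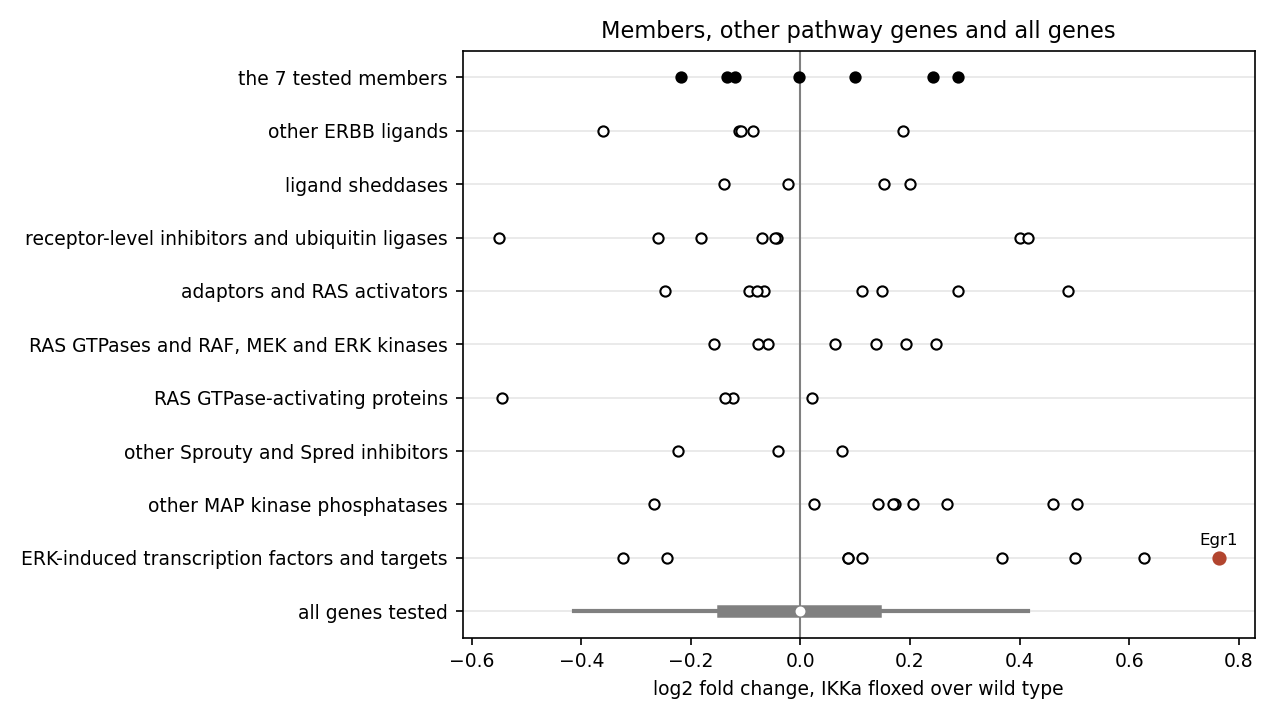
Log2 fold change of IKKa floxed over wild type for the 7 tested members (filled black) and the tested genes of each pathway list (open; red where the adjusted p was under 0.05). The grey bar at the bottom gives the 25th to 75th percentile of all genes tested, -0.14 to 0.14, and the grey line the 5th to 95th, -0.41 to 0.41. The members lie between -0.22 and 0.29, and Egr1, at 0.76, is the 1 red point.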

How the data were processed

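Groups and replicate numbers came from the sample titles. The authors deposited 1 linear intensity per probe set and array, made with Affymetrix Expression Console per the submitters' processing notes; the sources used here give neither its version nor its signal algorithm. Equal trimmed means (2% from each end) on the 4 arrays showed that values had been scaled. No detection calls were used, and the arrays' number limits the precision.

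Of 45101 probe sets, 64 controls were left out, 34945 had 1 gene symbol in the platform annotation, 932 had several and 9160 were not listed; 34741 matched RefSeq and 0 symbols changed. Array medians differed by at most 0.0649 on the log2 scale, so the deposited scaling was kept. Log2 values were tested by limma 3.58.1 under R 4.3.3 (lmFit, eBayes, two-sided, Benjamini-Hochberg), once over genes and once over all probe sets (filter at intensity 12.3), with 2 residual degrees of freedom. The procedure was tested on simulated data with changes far larger than those of the members. That test does not bear on changes of the members' size. A permutation test of 2 against 2 cannot pass the threshold and was not used.

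Members and gene lists were chosen with earlier results of these data known. Named were all members, pathway genes past the threshold, and up to 2 more by moderated t from each list of at least 3 tested genes. No member passed, so no genes of like pattern were sought. Marker genes are given as lists. Alternatives covered the pseudocount, filter, normalization, prior, probe-set mean, each array left out and the replicate number as a block.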

Additional observations from a re-analysis of the deposited data

How the results depend on the processing

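No member gene or member probe set passed the threshold under any alternative run (0 in each of 11 settings for genes and 10 for probe sets); the lowest adjusted p was 0.201 for Dusp6 among genes and 0.244 for 1421656_at (Spry2) among probe sets. The count over all genes was 103 with a pseudocount of 1, 360 with 64, 69 with no filter and 384 with a robust prior that follows an intensity trend, and ran from 146 (without wild type replicate 2) to 248 with an array left out. Calls over all probe sets, 174, became 13 with a pseudocount of 1, 517 with 64, 47 with no filter, 507 with the trend and robust prior and 99 with the replicate block, and ran from 93 (without floxed replicate 1) to 245 with an array left out. The 1 pathway call, Egr1, became 0 calls with a pseudocount of 1 (adjusted p = 0.0860), no filter (0.123), any array left out (0 to 0 calls) or the replicate block (0 calls, 0.0639). Its log2 fold change stayed between 0.69 and 0.83 in all 11 settings. The pathway calls became 2 with a pseudocount of 64, adding Dusp1 (0.0408), and 4 with the trend and robust prior, adding Dusp1 (0.0236), Fos (0.0468) and Errfi1 (0.0499), the last named after its value was seen. Signs of small estimates changed. Egfr was 0.025 after quantile normalization and 0.0091 as the mean of its probe sets, with a range of -0.053 to 0.046 with an array left out, positive without wild type replicate 1 or floxed replicate 1. Its probe set 1460420_a_at was 0.050 after quantile normalization and -0.029 to 0.023 with an array left out. With an array left out, Hbegf ran from -0.071 to 0.27, Erbb2 from -0.24 to 0.0022 and Spry4 from -0.40 to 0.13. As means of probe sets, Spry2 was -0.098, Spry4 0.12, Ksr1 -0.0060 and Nf1 0.080; the other causes were not tested. Samples of the same replicate number did not deviate together (r = -3.34e-04 across genes). This single value from 4 arrays cannot show whether the numbers pair the samples. The replicate block changed no other named call. With 2 arrays a group, a gene that missed the threshold may still have changed by a fold within its interval.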
